A study of Gallus gallus with 8 samples.

Results

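The regions described here were accessible to the Tn5 transposase in adult chicken red blood cells and had no peak in embryonic red blood cells, HD3 erythroblasts or fibroblasts. They were chosen by measured values, namely the presence of a peak in the adult list and its absence, by an overlap of 1 bp, from the other 3 lists. Of 26096 union regions on chromosomes 1 to 15, 17 to 26 and 28, 2010 met this rule, or 7.70%. They made up 22.3% of the 9023 regions with an adult peak, and each held 1 adult peak. They are called adult-only regions below, which says that a peak was listed in adult cells alone and not that the DNA was closed elsewhere.

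ATAC-seq, in which Tn5 cuts exposed DNA and leaves sequencing adapters in it, was run on 8 samples labelled WT, with 2 samples per cell type. The groups were red blood cells from hens of 28 to 38 weeks, red blood cells of embryos at day 10, HD3 (a chicken erythroblast cell line) and primary fibroblasts in culture. Nuclei of 150000 cells per sample were exposed to Tn5 for 30 min, and libraries went through 10 PCR cycles. The deposited values are 1 peak list per cell type, on build GRCg6a per the submitters' processing notes. The labels do not say how red blood cells were separated from the thrombocytes and white cells of blood, or whether 1 or several hens gave a sample, and HD3 is a single line. One of the adult libraries, replicate 1, had 1 lane read on another instrument.

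Birds keep the nucleus in their circulating red blood cells, whose chromatin becomes highly condensed as the cells mature and carries histone H5, a linker histone of this lineage. Transcription is low in the adult cells. In most cells the sites open to Tn5 are promoters, enhancers and other places where nucleosomes are displaced. In birds, chromosomes range from a few large ones to many small, gene-rich microchromosomes.

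Adult-only peaks were on the weaker side of the adult list. Since the rule uses the calls themselves, the values on strength and width are a description with no test. The authors' fold enrichment at the summit, the ratio of reads piled up there to the local background, had a median of 4.72 in the 2010 adult-only peaks, with quartiles of 3.94 and 6.05 and a range of 1.68 to 31.8. The 7182 adult peaks in regions shared with another list had a median of 8.11, quartiles of 5.37 and 12.99 and a range of 1.82 to 81.5. The ranges overlapped up to the highest adult-only value, above which the adult list held shared peaks alone, and the upper quartile of adult-only peaks lay below the median of shared peaks. Adult peaks shared with embryonic red blood cells alone were closer, with a median of 6.03 in 1321 peaks, as were those shared with HD3 alone, at 6.0 in 113, and with fibroblasts alone, at 5.31 in 735. Peaks of regions in all 4 lists had a median of 12.2.

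The adult list was ordered by fold enrichment and divided into 10 parts of equal size. The strongest part held 15 adult-only peaks among 919 (1.63%, 95% Wilson interval 0.992% to 2.68%) and the weakest 427 among 920 (46.4%, 43.2% to 49.6%). The share was higher in each part than in the next stronger one. A −log10 q of at least 10 was reached by 854 adult-only peaks (42.5%, 40.3% to 44.7%), by 80.7% of shared adult peaks, and by 72.3% of all 9192 adult peaks.

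**Figure D1:**
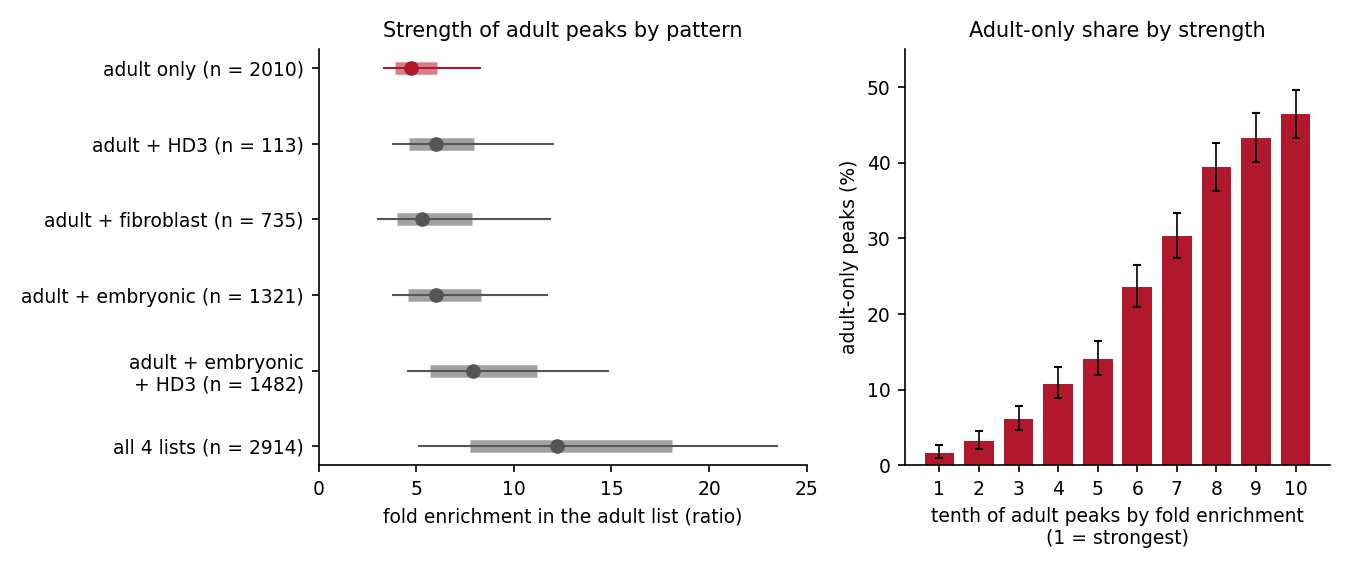
Left, fold enrichment (ratio) of adult peaks by the lists that share their region: points are medians, thick bars quartiles and thin lines the 10th to 90th percentile. Right, the percentage of adult-only peaks in each of 10 equal parts of the adult list by fold enrichment, with 95% Wilson intervals, from 1.63% in the strongest to 46.4% in the weakest.

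Adult-only peaks were also narrow. Their median width was 137 bp, with quartiles of 109 and 187 bp, against 231 bp (160 and 330 bp) for shared adult peaks. Only 141 of them (7.01%) exceeded 300 bp, compared with 30.9% of shared peaks, and 307 (15.3%) were no wider than 100 bp, compared with 3.88%. The narrowest peak in either set was 88 bp. The 3 widest adult-only peaks lay on chromosome 18 (chr18:11346010-11346673, 664 bp, fold enrichment 6.44), chromosome 11 (chr11:18361217-18361855, 639 bp, 9.75) and again chromosome 18 (chr18:11061108-11061698, 591 bp, 7.77).

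A few adult-only sites were among the strong peaks of adult cells. The highest fold enrichment, 31.8 with a −log10 q of 173, belonged to a 144 bp peak at chr4:237344-237487, which ranked 47 among the 9192 adult peaks. The nearest peak of any other list was an embryonic one 14089 bp away. The next was at chr1:165788821-165789016, with 24.8 and rank 244. Its nearest peak of another list was an HD3 one 81996 bp away, and its nearest embryonic peak was 1230507 bp away. Fold enrichments of 21.3, 21.3 and 21.1 were listed for chr3:92347679-92347902, chr2:137150885-137150995 and chr1:74080039-74080166. A peak at chr10:798877-799055 had 20.9 and one at chr2:54977137-54977243 had 19.9. These 7 were all more than 2.8 kb from any peak of another list and stood apart from shared adult peaks by at least 14118 bp.

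The other three of the 10 strongest differed in setting. At chr24:6449858-6450002 (19.8), an embryonic peak lay 243 bp away and a shared adult peak 188 bp away, and the site was 26393 bp from the last peak of the chromosome. At chr25:1407518-1407611 (19.7), the nearest embryonic peak was 29218 bp away. The last, chr3:74222477-74222694 (19.5), lay 136576 bp from its nearest neighbour, an HD3 peak. Among the 100 strongest adult-only peaks, which reached down to a fold enrichment of 10.47, 15 had a peak of another list within 1 kb.

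The setting of adult-only regions ranged from the edge of a shared site to long stretches without a peak of another list. The gap to the nearest peak of another list had a median of 3254 bp (95% interval from order statistics, 2757 to 3712 bp). It was under 1 kb for 638 regions (31.7%, 29.7% to 33.8%), from 1 to 10 kb for 784 (39.0%) and at least 10 kb for 588 (29.3%), of which 94 were at least 100 kb from any. Gaps under 1 kb were most frequent between 150 and 200 bp, with 73 regions, and between 100 and 150 bp, with 64. Fewer regions, 27, had a gap under 50 bp. Strength differed by less than the quartiles within the set, with a median fold enrichment of 4.36 for gaps under 1 kb and 5.07 for gaps of at least 10 kb.

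Embryonic peaks were the most frequent close neighbours. An embryonic peak lay within 1 kb of 468 adult-only regions (23.3%, 21.5% to 25.2%), a fibroblast peak of 335 (16.7%) and an HD3 peak of 251 (12.5%), from lists of 11060, 14057 and 10942 peaks on these chromosomes. The neighbouring peak was often itself in a region with an adult peak: this held for 348 of the 468 embryonic neighbours (74.4%), 237 of the 335 fibroblast neighbours (70.7%) and 201 of the 251 HD3 neighbours (80.1%). Of all peaks of these lists, 57.2% of embryonic, 30.8% of fibroblast and 42.2% of HD3 peaks were in such regions. In all, 471 adult-only regions (23.4%) had a shared adult peak within 1 kb, so that these sites lay beside one that adult cells had in common with another cell type. Neighbours found in all 4 lists were rarer: 5.22% of adult-only regions (4.33% to 6.28%) had such a region within 1 kb, against 9.84% of embryonic-only (8.77% to 11.03%), 1.48% of HD3-only (1.14% to 1.93%) and 1.72% of fibroblast-only regions (1.46% to 2.04%). The peak lists of the other cells allow the same count. Within 1 kb of a peak of another list lay 31.7% of adult-only regions, 34.1% of regions with an embryonic peak alone (908 of 2662), 9.71% of HD3-only (347 of 3575) and 9.94% of fibroblast-only regions (784 of 7887). The intervals of the adult-only (29.7% to 33.8%) and embryonic-only (32.3% to 35.9%) shares overlapped and lay far above those of both cultured cell types. They cover counting error over regions only. Between the red blood cells the comparison depended on the setting. With a −log10 q of at least 10 in all lists the shares were 26.8% for adult-only and 16.7% for embryonic-only regions. That limit also removes weaker peaks of the other lists, so a region with such a listed peak can count as adult-only. With lists of equal length the shares were 29.2% and 29.0%. No test across samples is possible for this or any later difference, since there is 1 list per cell type.

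**Figure D2:**
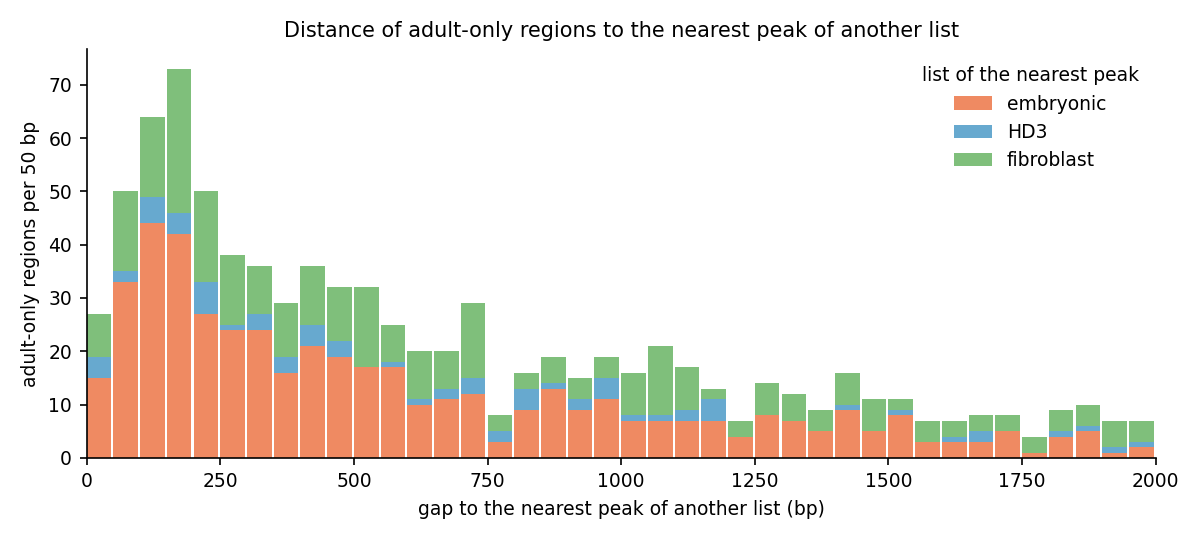
Number of adult-only regions (vertical axis) by the gap in bp to the nearest peak of another list (bins of 50 bp up to 2000 bp), coloured by the list that holds that peak. The bin from 150 to 200 bp is the fullest, with 73 regions.

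Few peaks lay near the line drawn by the overlap rule, and those on either side of it had close medians. The 27 adult-only regions with a gap of 50 bp or less had a median fold enrichment of 4.54 and a median width of 138 bp. The 58 shared adult peaks with an overlap of only 1 to 50 bp had 4.12 and 122 bp. Far more shared adult peaks, 7124, overlapped by over 50 bp, with medians of 8.15 and 232 bp. The 1372 adult-only regions with a gap over 1 kb had 4.945 and 137 bp. Where sharing required that 50% of the narrower peak be covered, 2088 regions were adult-only, against 2010 under the 1 bp rule. The closest adult-only region, chr9:10688151-10688245, directly adjoined an embryonic peak. Next came chr2:26039146-26039294, 2 bp from a fibroblast peak, then chr4:34949530-34949813, chr2:103074093-103074283 and chr19:8701662-8701760, which lay 3, 4 and 5 bp from an embryonic peak. Their fold enrichments ran from 3.30 to 4.95. At the other extreme, chr4:71050640-71050773 was 501573 bp from the nearest peak of another list, with a fold enrichment of 4.36, and chr4:71181031-71181130 was 457584 bp away, also with 4.36. The third most remote, chr2:133425138-133425358, had 9.02.

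Absence from another list can be read against the running numbers in the peak names, which rise along each chromosome and skip values in places. For 1141 adult-only regions (56.8%, 54.6% to 58.9%) the embryonic peaks on both sides had consecutive numbers, so that no numbered embryonic call is missing there. For 796 at least 1 number was missing between those peaks, and 73 had no embryonic peak on one side. The fibroblast numbers were consecutive around 1691 regions (84.1%) and the HD3 numbers around 776 (38.6%). In 415 regions (20.6%) this held for all 3 lists, and their median fold enrichment was 4.67, against 4.72 for the whole set. Where a skipped number lay is unknown, and whether it fell on the adult-only region was not tested. The same shares are not given for other regions, so whether adult-only regions differ from them in this was not tested either.

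Adult-only regions were spread over all 26 chromosomes but unevenly. They had 1.76 regions per Mb on chromosomes 1 to 5, 2.1 on chromosomes 6 to 10 and 3.57 on the 16 smaller ones. The ratio of the smaller to the largest was 2.02 (95% interval from the Poisson error of counts, 1.83 to 2.23), against 2.56 (2.43 to 2.69) for shared adult regions, 2.55 (2.35 to 2.78) for embryonic-only, 0.962 (0.882 to 1.05) for HD3-only and 1.20 (1.14 to 1.27) for fibroblast-only regions. The ratio of adult-only regions was below that of the rest of the adult list, with intervals apart. These intervals treat regions as independent, although 38.7% of adult-only regions lay in groups with gaps of up to 10 kb. They are therefore too narrow to order the sets firmly. With a −log10 q of at least 10 in all lists the ratio was 2.65 (2.35 to 2.98) for adult-only and 2.55 (2.40 to 2.71) for shared adult regions. These intervals overlapped, so the 2 sets could not be ordered at that limit. Stretches of 100 kb in which any list had 10 or more peaks, called dense windows below, held 476 of the adult-only regions (23.7%) and 16.2% of shared adult regions. Dense windows held 10.1% of all union regions, 7.74% of embryonic-only regions and 59.8% of regions of adult cells and fibroblasts only. Without dense windows the ratio was 1.39 for adult-only and 2.23 for shared adult regions.

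Chromosome 25 stood highest. It had 82 adult-only regions, or 20.7 per Mb, and these were 36.1% (30.2% to 42.6%) of its adult regions, compared with 25 embryonic-only, 7 HD3-only and 64 fibroblast-only regions. It was also the densest chromosome for shared adult (36.5 per Mb) and fibroblast-only regions (16.1 per Mb), but not for embryonic-only (6.3 per Mb) or HD3-only regions (1.76 per Mb). Chromosome 22 followed with 47 adult-only regions, 8.61 per Mb and a share of 30.1% (23.5% to 37.7%). Chromosomes 2 and 1 had shares of 28.8% and 27.6% at densities of only 1.87 and 2.12 per Mb. At the low end were chromosome 21, with 6 adult-only regions among 97 adult regions (6.19%, 2.87% to 12.8%), and chromosome 17, with 12 among 121 (9.92%, 5.76% to 16.5%). The small chromosomes therefore included both the highest and the lowest shares. Median fold enrichment of the adult-only peaks by chromosome ran from 3.95 on chromosome 17 to 5.82 on chromosome 21.

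**Figure D3:**
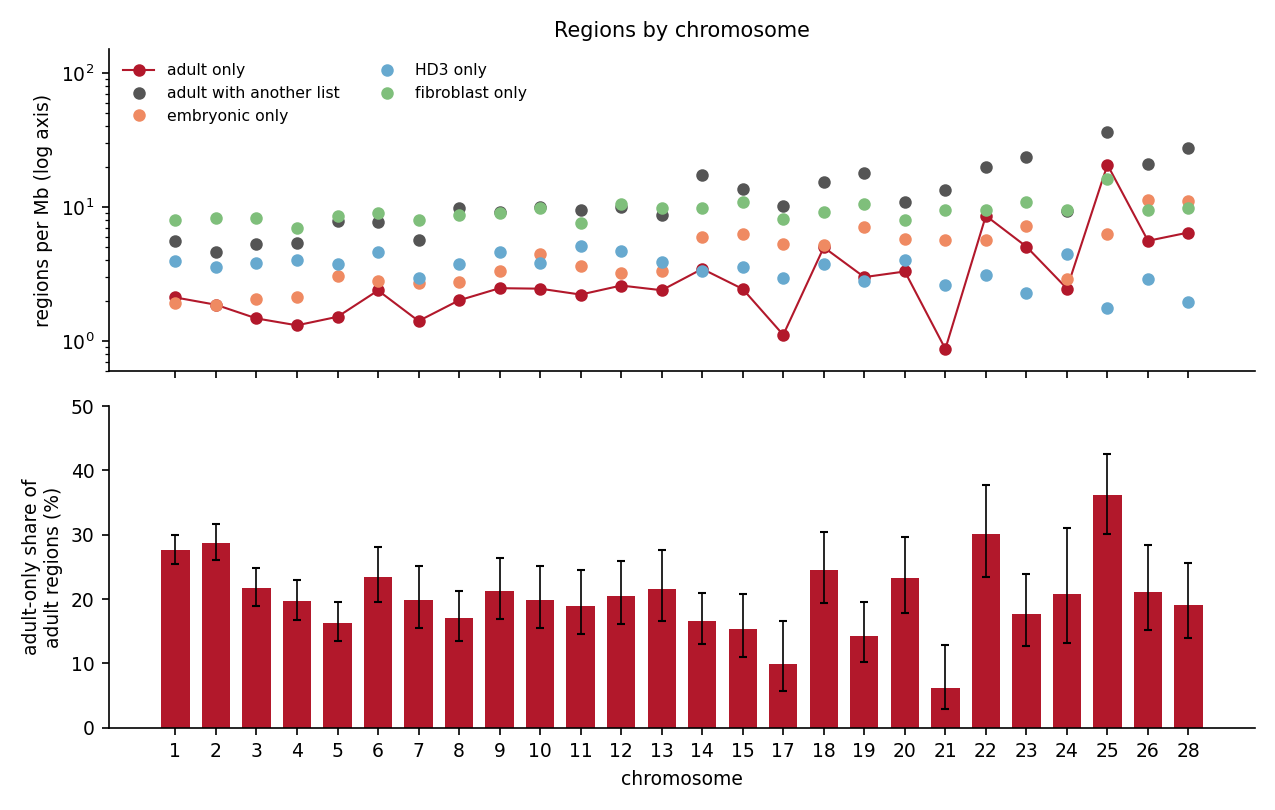
Top, regions per Mb (log axis) on each chromosome for adult-only regions (joined by a line), shared adult regions and regions of 1 other list alone. Bottom, adult-only regions as a percentage of all adult regions of the chromosome with 95% Wilson intervals, highest on chromosome 25 (36.1%) and lowest on chromosome 21 (6.19%).

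Adult-only regions lay close to chromosome ends more often than the rest of the adult list and the regions of any other single list, a pattern noticed in these data. Distances were taken from position 1 and from the last peak of any list. Within 500 kb of an end lay 347 adult-only regions (17.3%, 15.7% to 19.0%), against 11.1% (10.4% to 11.9%) of shared adult regions, 7.29% of embryonic-only, 2.21% of HD3-only and 6.56% of fibroblast-only regions. Regions of adult cells and fibroblasts only were higher still on the 26 chromosomes together, at 32.01% (28.7% to 35.5%). These stretches made up 2.79% of the chromosomes' length, or 0.821% on chromosomes 1 to 5 and 9.15% on the 16 smaller ones. On chromosomes 1 to 5 alone the share was 6.42% (5.11% to 8.05%) for adult-only, 3.71% (3.12% to 4.41%) for shared adult and 3.62% (2.73% to 4.80%) for embryonic-only regions. On the 16 smaller chromosomes it was 39.1% for adult-only against 23.4% for shared adult regions. Regions of adult cells and fibroblasts only stood at 4.45% (2.72% to 7.21%) on chromosomes 1 to 5 and at 71.1% on the 16 smaller chromosomes. The intervals of these shares treat regions as independent, although 14 of the 52 ends held 214 of the 347 adult-only regions. Here too they are therefore too narrow to order the sets firmly. Adult-only peaks near the ends had a median fold enrichment of 4.58 and a median −log10 q of 11.04, against 4.75 and 8.46 farther in, so the measures of strength differed in opposite directions.

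The difference at the ends moved with the dense windows. Without them 7.63% (6.40% to 9.06%) of adult-only, 6.04% (5.46% to 6.68%) of shared adult and 5.58% (4.74% to 6.55%) of embryonic-only regions lay within 500 kb of an end. The adult-only share was still the highest of these, and its interval overlapped both of the others. Such overlap does not show that the shares are equal. The dense windows were picked for their many peaks, adult ones included. With a −log10 q of at least 10 in all lists the shares were 20.5% for adult-only, 10.1% for shared adult and 6.80% for embryonic-only regions. Fibroblast-only regions stood at 11.1% (9.79% to 12.6%) with this limit and at 2.88% without dense windows, and HD3-only regions at 1.63% and 1.65%. Measured from the outermost peak on each side, the shares were 19.0% for adult-only, 11.8% for shared adult and 7.70% for embryonic-only regions. The last setting was added since on 5 chromosomes the first peak of any list lay past 500 kb.

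**Figure D4:**
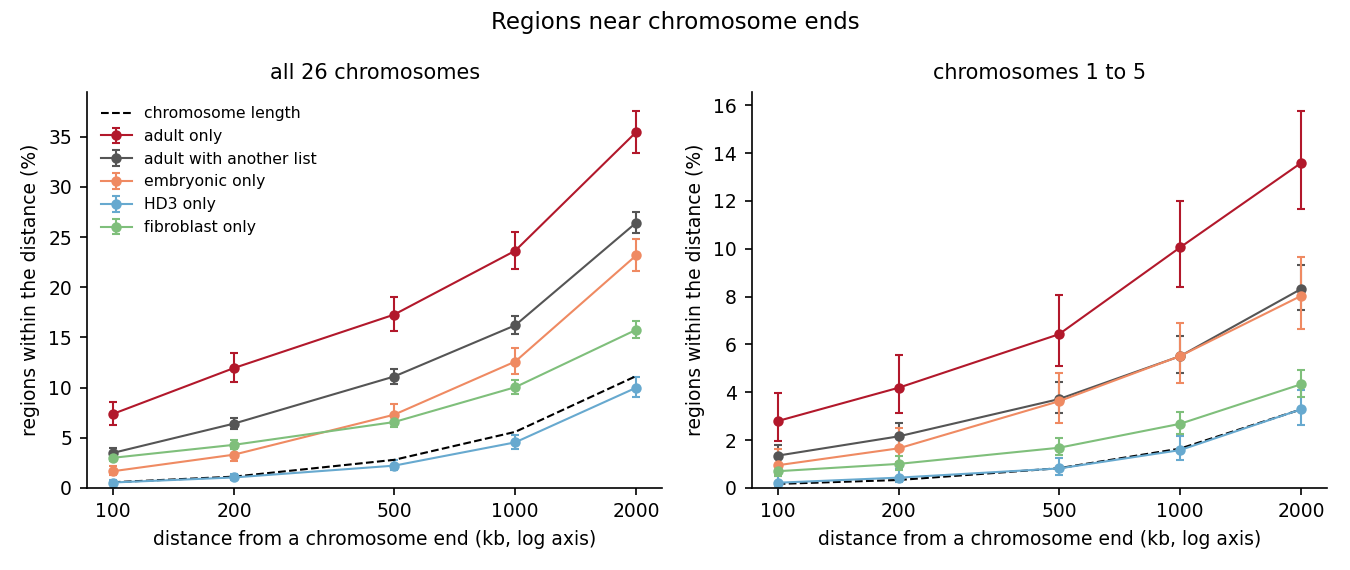
Percentage of regions within a given distance (kb, log axis) of a chromosome end on all 26 chromosomes (left) and on chromosomes 1 to 5 (right), with 95% Wilson intervals. The dashed line is the percentage of chromosome length within that distance; at 500 kb on all chromosomes the adult-only value is 17.3% and that of shared adult regions 11.1%.

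The ends contributed unequally. Of the 52 ends, 14 had at least 10 adult-only regions within 500 kb and together held 214. Of the 7 ends with none, 5 had no peak of any list in that stretch, and the other two, the distal ends of chromosomes 9 and 21, had 11 and 16 adult regions, all shared. The distal end of chromosome 18 had the most, 30 adult-only among 67 adult regions, beside 5 embryonic-only, 0 HD3-only and 22 fibroblast-only regions. The start of chromosome 1 had 24 among 52, and the distal end of chromosome 11 had 22 among 40. Adult-only regions outnumbered embryonic-only ones at 30 ends and were fewer at 10. At the distal end of chromosome 1 they were 3, against 12 embryonic-only regions. Against fibroblast-only regions, a larger set, the order differed by end. Adult-only regions were 17 against 34 at the start of chromosome 14, and 24 against 17 at the start of chromosome 1.

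Neighbouring adult-only regions formed groups. With gaps of up to 10 kb, 778 of the 2010 (38.7%, 36.6% to 40.9%) belonged to 278 groups of 2 or more, and 25 groups had 5 or more members, 12 of them within 500 kb of an end. Of embryonic-only regions 33.6% (31.9% to 35.4%), of HD3-only 15.97% and of fibroblast-only regions 35.5% had another of their kind within 10 kb. Those sets held 2662, 3575 and 7887 regions, and no allowance was made for the different sizes. The largest groups of adult-only regions had 10 members. One spanned 21.7 kb at chr11:19977744-19999446, with fold enrichments of 3.0 to 10.6, and also held 5 embryonic, 2 HD3 and 6 fibroblast peaks. The other, chr7:1425-24099, began 1424 bp from the start of the chromosome and had fold enrichments of 3.57 to 14.5. Of its 11 adult peaks 10 were adult-only, and it held 1 embryonic, 0 HD3 and 1 fibroblast peak.

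The groups next in size were 2 with 9 members and the shortest of 4 with 8. Groups were picked for many regions that by the rule hold no peak of another list. Low counts of other peaks in them therefore follow in part from that choice. The group at chr18:1837274-1877091 began 1837 kb from the start of the chromosome. There 9 of 10 adult peaks were adult-only, with fold enrichments of 3.01 to 4.86, beside 0 embryonic, 0 HD3 and 2 fibroblast peaks. At chr18:11038962-11073217, 9 of 11 were adult-only, beside 1 embryonic, 1 HD3 and 3 fibroblast peaks. At chr6:36327711-36354729 it was 8 of 9, beside 1 embryonic, 1 HD3 and 1 fibroblast peak. With gaps of at most 1 kb the group with the most members was chr25:607156-609244. There 5 adult-only peaks followed one another over 2.09 kb with no peak of another list and fold enrichments of 2.296 to 5.50. The 2 groups of 4 lay at chr7:20554-22334 and chr20:1940933-1942757. Of 19 groups of 3 the shortest were chr18:11065669-11066419 and chr1:104796794-104797689, and 102 groups were pairs.

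On the scale of 1 Mb, 31 of 947 windows had at least 10 adult-only regions and together held 462. The windows named below were picked for their number of adult-only regions. Its excess over the counts of other sets there follows in part from that choice and is a description. The window from 1 to 2 Mb of chromosome 25 had 40, the most of any, and these made up most of its 57 adult regions. They ran from position 1286464 to 1940943, with fold enrichments of 3.63 to 19.7 (median 5.98), and 21 of them had a −log10 q of at least 10. The same megabase had 17 embryonic, 11 HD3 and 17 fibroblast peaks in all, and 3 of the 40 regions had one of these within 1 kb. Around 13 of the 40 no embryonic peak number was missing. In the windows next in number, more regions had a peak of another list within 1 kb. These were 15 of 30 from 0 to 1 Mb of chromosome 1 and 9 of 23 from 11 to 12 Mb of chromosome 18.

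A window far from any end, 130 to 131 Mb of chromosome 2, had 19 adult-only among 35 adult regions, with fold enrichments of 3.93 to 7.85, against 3 embryonic-only, 2 HD3-only and 10 fibroblast-only regions. Around 13 of these 19 the embryonic numbers were consecutive. From 3 to 4 Mb of chromosome 22 there were 15 adult-only among 42 adult regions, beside 1 embryonic-only, 4 HD3-only and 6 fibroblast-only regions. That megabase had 30 embryonic, 19 HD3 and 24 fibroblast peaks in all. From 1 to 2 Mb of chromosome 9 there were 15 adult-only among 31 adult regions, beside 3 embryonic-only, 3 HD3-only and 12 fibroblast-only regions. It had 16 embryonic, 15 HD3 and 24 fibroblast peaks in all, and the embryonic numbers were consecutive around 14 of the 15 adult-only regions. The first megabase of chromosome 14 showed another mix, with 18 adult-only, 4 embryonic-only, 34 fibroblast-only and 50 regions of adult cells and fibroblasts only.

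**Figure D5:**
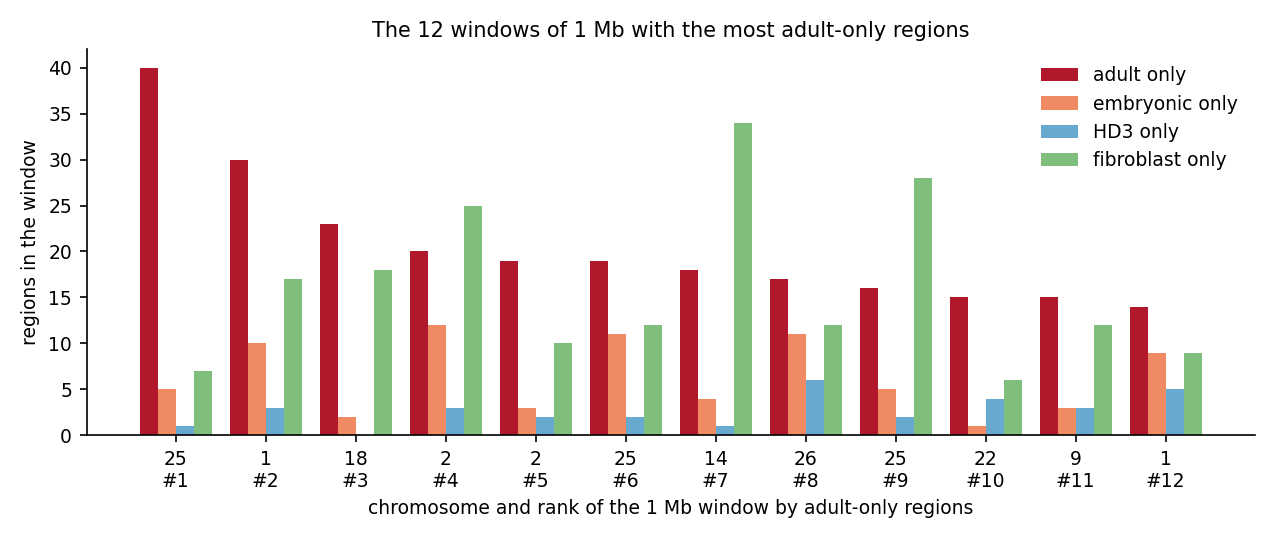
Number of adult-only, embryonic-only, HD3-only and fibroblast-only regions in the 12 windows of 1 Mb with the most adult-only regions, ordered by that number and labelled by chromosome. The first window, on chromosome 25, has 40 adult-only, 5 embryonic-only, 1 HD3-only and 7 fibroblast-only regions.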

How the data were processed

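The members and comparisons were chosen with earlier results of these data known. Per the submitters' processing notes, Bowtie2 2.3.5, SAMtools 1.9, MACS2 2.1.2 and build GRCg6a were used, with no roles stated. The authors deposited 1 narrowPeak list per cell type with a fold enrichment (ratio over local background), −log10 p and −log10 q, and a display score that was not used. How the 2 samples became 1 list, read filters and Tn5 offsets are not given in the sources used here. Peak names carry the tags aRBC2CLEANED, eRBC2CLEANED, HD32_macs2_0.01 and Fb1CLEANED, so that a list may stand for 1 sample and not for both. Read depth cannot be had from lists without counts, and values belong to single peaks without replicate error.

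Peaks overlapping by 1 bp were merged, and positions were written from 1. Shares have 95% Wilson intervals and medians order-statistic intervals, which cover counting error only. Merging was tested on simulated data, and its counts equalled those of bedtools 2.31.1. Named regions were the 10 strongest, the 3 widest and those closest to another list. Also named were the 5 groups with the most members at gaps of at most 1 kb, the shorter first where tied. Farthest regions, 1 Mb windows, groups within 10 kb, ends and peak numbers were added after the values were seen. The gene table at hand is of GRCg7b, so no gene, sequence or marker was assigned to a region, and the labelled cell types were not checked against markers. Computation used SciPy 1.17.1, pandas 2.3.3 and NumPy 2.4.6 under Python 3.11.15, with figures by matplotlib 3.10.9.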

Additional observations from a re-analysis of the deposited data

Results flagged for a closer look

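The rule leaves out chromosomes 16, 27, 30 to 33, Z and W, and these held 736 further adult-only regions, a signal in data that no comparison above used. They were 33.7% (95% Wilson interval 31.8% to 35.8%) of the 2181 adult regions there, against 22.3% (21.4% to 23.1%) on the chromosomes kept. Chromosome Z had 210 at 2.54 per Mb, chromosome 33 had 144, chromosome 27 had 113, chromosome 31 had 95, chromosomes 16 and 30 had 65 each, chromosome W had 31 and chromosome 32 had 13. Density reached 35.7 per Mb on chromosome 30, and the share of adult regions reached 52.5% (40.0% to 64.7%) on chromosome W. The adult cells came from hens. Whether the sex of the other samples differed, which would bear on Z, W and the pooled share, was not tested.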

How the results depend on the processing

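No paired analysis was possible because the lists, 1 for each of the cell types, carry no replicate values. Leaving out a sample was not feasible for the same reason. Of 54 alternative values 40 moved beyond the interval of the result, or for the number of regions by over 1.5 times, and 0 of the ratios crossed 1 relative to the reported value. Contrasts with other sets did change with a −log10 q of at least 10 in all lists. The density ratio was 2.65 for adult-only and 2.55 for shared adult regions, with intervals that overlapped and had been apart before. The share within 1 kb of another list was 26.8% for adult-only and 16.7% for embryonic-only regions, whose intervals had overlapped before. The causes were not tested, except that filters shorten lists by construction. GC content, motif and gene-start alternatives were not run, for want of a genome of the build.

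The number of regions was 1330 with a −log10 q of at least 10 in all lists, 854 with it in the adult list and 1141 where no embryonic number was missing. The limit in all lists also removed peaks of the other cell types. Some of the 1330 regions therefore had a listed peak of another cell type below the limit, and they are not a subset of the 2010. In the order of q in all lists, q in the adult list, lists of equal length, 100 bp around summits, no other peak within 1 kb, all chromosomes and no dense windows, adult-only regions were 20.2%, 12.99%, 25.6%, 23.5%, 15.2%, 24.5% and 20.7% of adult regions, and 9.05%, 3.42%, 10.6%, 8.06%, 5.26%, 8.76% and 6.54% of union regions.

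The ratio of median fold enrichment, adult-only over shared, was 0.582. It was 0.634 with q in all lists, 0.662 with q in the adult list, 0.610 with no other peak within 1 kb, 0.559 without dense windows and 0.381 by −log10 p. Median width was 168 bp with q in all lists and 154 bp with q in the adult list. The density ratio was 2.65 and 2.60 with these, 1.76 with no other peak within 1 kb, 1.39 without dense windows and 1.83 with no embryonic number missing. The median gap was 4397 and 2545 bp with the q limits, 7719 bp by construction with no other peak within 1 kb, and 4529 bp without dense windows. The share near ends was 20.5% and 21.9% with the q limits, 7.63% without dense windows, 15.2% with no embryonic number missing and 19.0% from the outermost peaks. The share within 1 kb of another list was 26.8% with q in all lists and 27.8% without dense windows. Alternatives on ends, neighbours and peak numbers were chosen after seeing the data.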
